A study of Mus musculus with 18 samples.

Results

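A set of 10 genes with lower array signals in liver tumours of antibiotic-treated mice were followed across normal liver and the other tumours of the series: the long noncoding RNAs Malat1 and Neat1, and the protein-coding genes Chka, Washc4, Kdm5b, Ppm1h, Ranbp9, Bptf, Gcc2 and Xiap. All probe sets that the platform annotation assigns to these genes were taken, 38 of the 45101 on the array; the array holds probe sets for 18193 gene symbols in all. Of the 38, 26 exceeded a log2 signal of 4 on at least 3 arrays and are called expressed below, and 12 did not. The 10 genes were chosen because their signals were lower in tumours of antibiotic-treated mice than in tumours of untreated wild-type (WT) mice. Their differences in that comparison are therefore a description and carry no test, and the WT tumour arrays took part in the choice wherever they are used below.

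Signals were measured on 18 arrays of male mouse liver tissue, 1 for each sample. Antibiotic tumours (n = 3, numbered 28 to 30) were hepatocellular carcinomas (HCC) of WT C3H/HeOuJ mice that drank ampicillin, neomycin and metronidazole at 1 g/l each and vancomycin at 500 mg/l, starting in week 10. Tlr4-mutant tumours (n = 5, numbered 23 to 27) were HCC of C3H/HeJ mice, whose receptor for bacterial lipopolysaccharide is mutated. WT tumours (n = 7, numbered 16 to 22) were HCC of C3H/HeOuJ mice without antibiotics. The mice of these 3 groups shared one regimen, the carcinogen diethylnitrosamine (DEN, 100 mg/kg) in week 12, followed by the liver toxin CCl4 (0.5 ml/kg, injected 6 times between weeks 13 and 23), and were 54 weeks old. Normal liver (n = 3, numbered 1 to 3) came from untreated C3H/HeOuJ mice of 15 weeks, so that age differs from the tumours along with the regimen. The mutant and WT mice are different substrains, and loci other than Tlr4 may differ between them. The labels do not say whether each sample came from its own animal, and a p-value here reflects sample-to-sample spread that may be technical only. The values are whole-tissue signals, in which fewer cells of a type and less RNA per cell cannot be told apart.

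Malat1 and Neat1 are abundant RNAs that stay in the nucleus. Malat1 accumulates at nuclear speckles, where splicing factors gather, and Neat1 is the scaffold of paraspeckles, bodies that retain certain RNAs and proteins. Both have been studied in liver cancer, Malat1 mostly as a transcript of high level in tumours. Both genes lie on mouse chromosome 19, and the RefSeq gene table for GRCm38.p6 lists 0 genes between them.

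Promoter windows from 250 bases before to 50 bases after the gene start were listed by RefSeq (GRCm38.p6) for 9 of the 10 genes. They are shown for Malat1, Kdm5b and Xiap (1 of its 3 windows), the member genes whose windows hold the letters TGACGT, the core of the motif bound by CREB and ATF factors. Windows were searched on both strands for TGACGT, for the CAAT box as CCAAT, for the GC box core as GGGCGG, for the E-box as CACGTG and for the TATA box as TATAAA, and capitals mark every match. The windows lie at chr19:5802623-5802922 on the minus strand, chr1:134559928-134560227 on the plus strand and chrX:42068148-42068447 on the plus strand.
Malat1: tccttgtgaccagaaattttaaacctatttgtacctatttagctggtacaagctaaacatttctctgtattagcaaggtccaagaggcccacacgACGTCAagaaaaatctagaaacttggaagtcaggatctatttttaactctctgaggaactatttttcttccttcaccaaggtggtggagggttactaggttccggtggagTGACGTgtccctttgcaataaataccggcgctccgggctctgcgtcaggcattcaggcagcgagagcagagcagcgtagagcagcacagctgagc
Kdm5b: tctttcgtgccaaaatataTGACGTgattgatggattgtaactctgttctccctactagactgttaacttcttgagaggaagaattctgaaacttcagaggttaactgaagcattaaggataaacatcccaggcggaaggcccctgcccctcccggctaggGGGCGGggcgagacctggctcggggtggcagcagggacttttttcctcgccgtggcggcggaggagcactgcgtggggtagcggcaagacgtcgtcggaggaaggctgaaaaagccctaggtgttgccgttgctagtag
Xiap: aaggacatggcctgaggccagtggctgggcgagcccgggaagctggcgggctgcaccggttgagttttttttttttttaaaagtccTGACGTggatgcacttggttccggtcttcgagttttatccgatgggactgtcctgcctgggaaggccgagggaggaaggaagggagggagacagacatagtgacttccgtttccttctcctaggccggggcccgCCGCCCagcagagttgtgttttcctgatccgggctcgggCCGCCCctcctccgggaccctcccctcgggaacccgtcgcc
Of all 32851 windows in the table, 7.51% held TGACGT. The Malat1 window held 2 copies and none of the other 4 motifs. GGGCGG stood in windows of 6 of the 9 genes (Bptf, Chka, Kdm5b, Ranbp9, Washc4 and Xiap) and in 35.7% of all windows. CCAAT was found for Chka alone among the 9 and in 37.4% of all windows, CACGTG for Bptf and Washc4 and in 7.15%, and TATAAA for Washc4 and Xiap and in 13.6%. The windows for Gcc2 and Ppm1h held none of the 5 motifs. The motif list was drawn up after the windows had been seen, and a match describes letters only.

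The 18 arrays were alike in scale, with medians between 6.69 and 6.85 and 14427 to 15275 probe sets above log2 4. Hepatocyte markers were bright on every array, their summed level lying at log2 17.01 to 17.02 in antibiotic tumours, 17.02 to 17.11 in Tlr4-mutant tumours, 16.77 to 17.01 in WT tumours and 16.92 to 17.03 in normal liver. Some arrays stood apart over all expressed probe sets. WT tumours 17 and 19 were separated by the second principal component, with 14.0% of the variance, and antibiotic tumour 30 by the third, with 8.79%. For the Gapdh controls the signal of the 3' probe set minus that of the 5' one, a measure of RNA quality and labelling, was 0.40 ± 0.13 in antibiotic tumours (log2, SD, n = 3), 0.66 ± 0.24 in Tlr4-mutant tumours (n = 5) and 0.42 ± 0.15 in WT tumours (n = 7). Antibiotic minus WT tumours gave -0.02 (two-sided exact permutation p = 0.883, adjusted p = 0.883 over 4 tests), and Tlr4-mutant minus WT tumours 0.24 (two-sided exact permutation p = 0.053, adjusted p = 0.212). Tlr4-mutant tumours 27 and 26 had the largest Gapdh differences among tumours, 1.02 and 0.71. For beta-actin tumour 27 was again highest among tumours, at 2.79, but WT tumour 19 (2.47) exceeded tumour 26 (2.28). Beta-actin gave -0.11 for antibiotic minus WT tumours (two-sided exact permutation p = 0.383, adjusted p = 0.717). Tlr4-mutant minus WT tumours gave 0.10 (two-sided exact permutation p = 0.538, adjusted p = 0.717). In normal liver the Gapdh difference was 1.37 to 1.61, above every tumour. RNA quality and labelling therefore cannot be told apart from tissue and age in any comparison with normal liver.

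Malat1 was lower in antibiotic tumours on all 7 of its probe sets, each with all 3 antibiotic tumours below all 7 WT tumours. On its brightest probe set, 1418189_s_at, the log2 signals were 12.22, 12.54 and 12.33 in antibiotic tumours. In Tlr4-mutant tumours they were 12.63 at the lowest, 13.26 at the median and 13.44 at the highest. WT tumours ran between 13.24 and 13.88 with a median of 13.64, and normal livers read 12.44, 12.42 and 12.26. The antibiotic tumours overlapped normal liver and lay below every tumour of the other groups. Antibiotic minus WT tumours was -1.19 ± 0.18 (log2, SE), a 2.28-fold lower signal. The neighbouring probe set 1418188_a_at, made to the same target transcript, read 11.91, 12.37 and 11.99 in antibiotic tumours and between 13.11 and 14.10 in WT tumours, a difference of -1.46 ± 0.22.

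**Figure D1:**
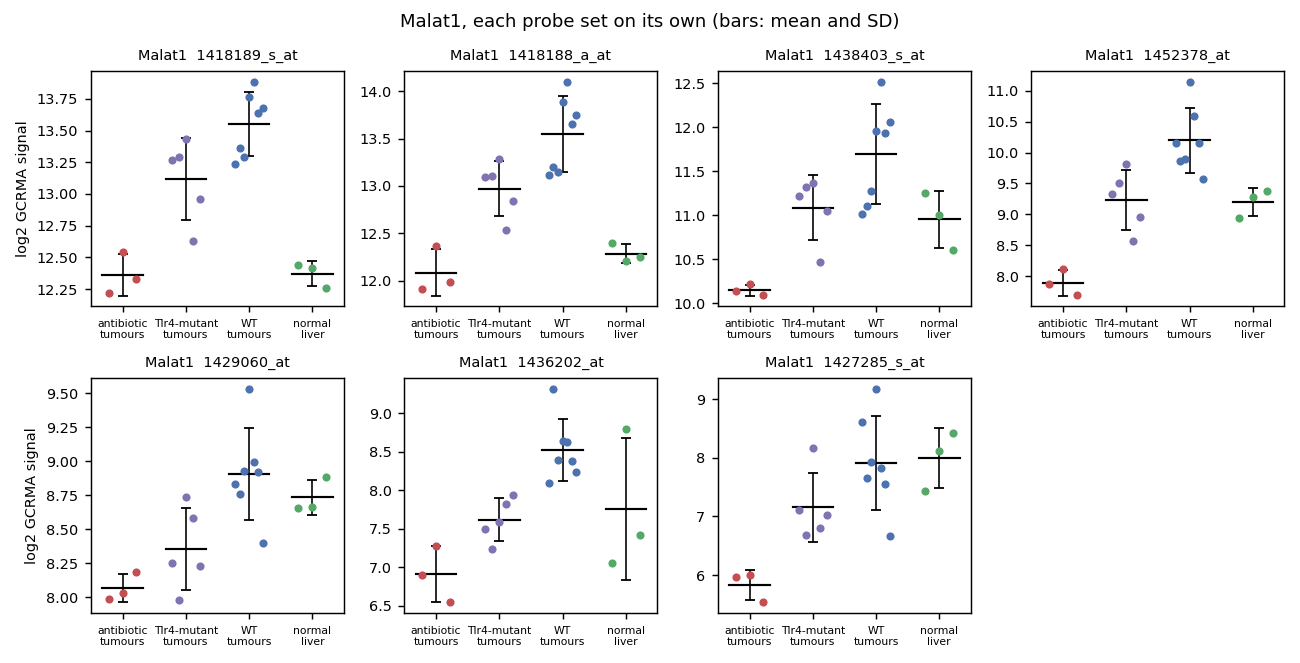
Log2 GCRMA signal (y axis) of the 7 Malat1 probe sets on each array (points), by group (x axis: antibiotic, Tlr4-mutant and WT tumours, normal liver), with group means and SD. On every panel the 3 antibiotic tumours lie below the 7 WT tumours, and their place relative to normal liver differs from panel to panel.

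The other Malat1 probe sets covered a span of differences. The largest was that of 1452378_at, with 7.87, 8.11 and 7.70 in antibiotic tumours against a range of 9.57 to 11.14 in WT tumours (-2.30 ± 0.29, 4.94-fold lower). The smallest was that of 1429060_at, with 7.98, 8.03 and 8.19 in antibiotic tumours against 8.39 to 8.99 for 6 WT tumours and 9.53 for WT tumour 19 (-0.84 ± 0.19). Between these lay 1438403_s_at, with 10.13, 10.21 and 10.09 in antibiotic tumours against 11.01 to 12.52 in WT tumours (-1.55 ± 0.29), and 1436202_at, with 6.90, 7.28 and 6.55 against 8.09 to 9.32 (-1.62 ± 0.31). The probe sets did not share 1 place relative to normal liver. Antibiotic minus normal liver was -0.01 on 1418189_s_at but -1.31 on 1452378_at and -2.17 on 1427285_s_at, where all 3 antibiotic tumours (5.83 ± 0.26, SD) lay below all 3 normal livers (7.44 to 8.43). Once group means were removed, 1418188_a_at, 1438403_s_at and 1452378_at followed the brightest probe set over the 15 tumours (r of deviations 0.96, 0.90 and 0.71), and 1429060_at, 1436202_at and 1427285_s_at did not (0.11, -0.12 and 0.15). These correlations share arrays and normalisation and are given as a description. Probe sets ending in _s_at or _x_at may bind transcripts of more than 1 gene.

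Neat1 was read by 1 expressed probe set, 1428083_at. Its signals were 11.05, 11.51 and 11.55 in antibiotic tumours. Tlr4-mutant tumours had 11.91 to 12.70, WT tumours 12.01 to 13.08, and normal livers 11.53, 12.12 and 11.21. All antibiotic tumours were below all other tumours, and they overlapped normal liver. Antibiotic minus WT tumours was -1.17 ± 0.27 (log2, SE). Although Neat1 and Malat1 had nearly the same difference, their array-to-array deviations within tumour groups were not alike, with r 0.04 over the 15 tumours. The other Neat1 probe set, 1442881_at, was dim.

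Among the protein-coding members, Chka differed most. It encodes choline kinase alpha, the enzyme of the first step of phosphatidylcholine synthesis from choline. On 1453582_at antibiotic tumours read 7.94, 8.23 and 7.21. Tlr4-mutant tumours spread from 7.62 in tumour 27 to 10.86 in tumour 24, WT tumours from 9.55 to 10.74, and normal livers read 4.81, 5.10 and 4.70. The antibiotic tumours lay below every WT tumour and above every normal liver, and tumour 27 was the only Tlr4-mutant tumour in their range. Antibiotic minus WT tumours was -2.14 ± 0.49 (4.41-fold lower), and antibiotic minus normal liver was 2.92. The other Chka probe sets differed by -2.12 ± 0.60 on 1450264_a_at and by -3.22 ± 0.62 on 1442277_at, the largest difference of all 26 expressed probe sets (9.34-fold lower; 6.20, 7.19 and 5.76 in antibiotic tumours and 9.25 to 10.24 in WT tumours). All 3 Chka probe sets deviated together within groups (r 0.96 and 0.96 with the brightest).

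Washc4, a subunit of the WASH complex that builds actin on endosomes, had 4 expressed probe sets, 3 of them without overlap. On the brightest, 1439450_x_at, antibiotic tumours read 6.23, 7.19 and 6.31 and WT tumours 7.97 to 9.14 (3.64-fold lower). The Tlr4-mutant tumours read 7.94, 7.91, 7.94, 7.10 and 6.70, and tumours 26 and 27, the last 2 values, reached into the antibiotic range. On 1437719_x_at the antibiotic tumours read 5.07, 5.95 and 5.69 and the WT tumours 7.50 ± 0.42 (SD, n = 7; -1.93 ± 0.25). On 1427319_at, the faintest, they read 4.60, 5.34 and 4.54 against 5.53 to 6.98 (-1.53 ± 0.36), and the normal livers, at 4.72 to 4.79, lay among the antibiotic tumours. The probe set 1436353_at overlapped, with 7.43, 7.97 and 6.89 in antibiotic tumours against 7.79 to 8.42 in WT tumours, and its difference of -0.63 ± 0.21 became -0.36 without antibiotic tumour 30 and -0.90 without antibiotic tumour 29.

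Kdm5b, a demethylase of lysine 4 of histone H3, read 6.54, 7.20 and 6.79 in antibiotic tumours and 7.43 to 8.03 in WT tumours on its 1 expressed probe set (-0.99 ± 0.16). Its antibiotic tumours were also below all normal livers (7.40 to 7.86). Ranbp9, a scaffold of the CTLH ubiquitin ligase, read 8.76, 8.74 and 8.18 in antibiotic tumours and 9.23 to 9.81 in WT tumours on 1456199_x_at (-0.89 ± 0.16). On 1422736_at the Ranbp9 difference of -0.81 ± 0.18 became -0.49 without antibiotic tumour 30, which had the lowest value, 6.90. Ppm1h, a protein phosphatase of the PP2C family, was near the floor in antibiotic tumours, at 4.62, 4.07 and 3.30, against 5.19 to 6.44 in WT tumours (-1.70 ± 0.30), and was dim in all normal livers (3.11 to 3.21). Kdm5b, Ranbp9 and Ppm1h had all antibiotic tumours below all WT tumours on each expressed probe set.

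**Figure D2:**
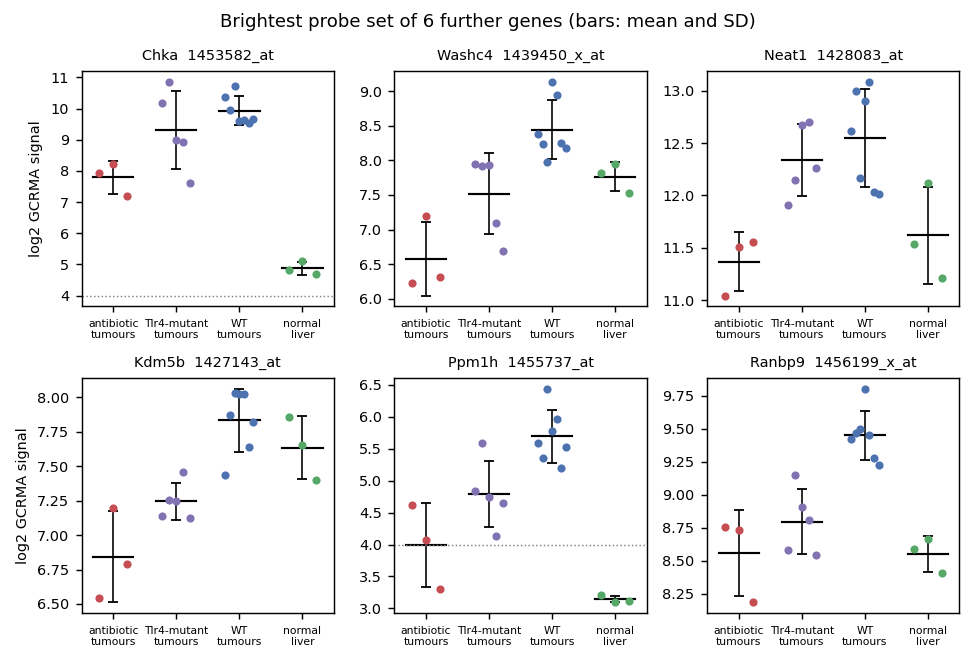
Log2 GCRMA signal (y axis) on each array (points) for the brightest probe set of Chka, Washc4, Neat1, Kdm5b, Ppm1h and Ranbp9, by group (x axis: antibiotic, Tlr4-mutant and WT tumours, normal liver), with group means and SD; a dotted line marks log2 4 where signals come near it. Chka reads 7.21 to 8.23 in antibiotic tumours, under all WT tumours (9.55 to 10.74) and over all normal livers (4.70 to 5.10).

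For Bptf, Gcc2 and Xiap the brightest and the faintest expressed probe sets gave different pictures. Bptf encodes the largest subunit of the chromatin remodeller NURF. Its brightest probe set, 1456615_a_at, read 9.45, 9.57 and 9.74 in antibiotic tumours and 9.56 to 10.02 in WT tumours, an overlap with a difference of -0.13 ± 0.12. Its faintest expressed probe set, 1427311_at, read 3.43, 3.88 and 3.89 in antibiotic tumours and 5.14 to 6.18 in WT tumours. Since all 3 antibiotic tumours were under log2 4, the signal was at least 2.88-fold lower. Yet 1427310_at, made to the same target transcript as 1427311_at, differed by -0.18 ± 0.15 with overlap.

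Gcc2 encodes a golgin that tethers vesicles at the trans-Golgi. Its bright probe set 1429081_at read 9.56, 9.40 and 9.27 in antibiotic tumours and 9.51 to 10.29 in WT tumours (-0.48 ± 0.18, overlapping). Its faint one, 1451800_at, was under log2 4 in all antibiotic tumours (3.18, 3.51 and 2.85), and read 3.99 in WT tumour 22 and 4.81 to 6.30 in the other WT tumours. On group means it was at least 2.51-fold lower, and WT tumour 22 cannot be ordered against the antibiotic tumours. Xiap, an inhibitor of caspases, read 10.83, 11.10 and 10.83 in antibiotic tumours and 11.08 to 11.73 in WT tumours on 1437533_at (-0.37 ± 0.14, overlapping). On 1456088_at, made to the same target transcript, it read 6.41, 7.74 and 7.40 against 8.57 to 9.91 (-1.99 ± 0.39), without overlap. The difference between probe sets of a gene was not tested. The faintest and brightest expressed Bptf probe sets also deviated unalike within tumour groups (r 0.04), those of Gcc2 had r 0.33 and those of Xiap 0.51 (15 tumours).

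**Figure D3:**
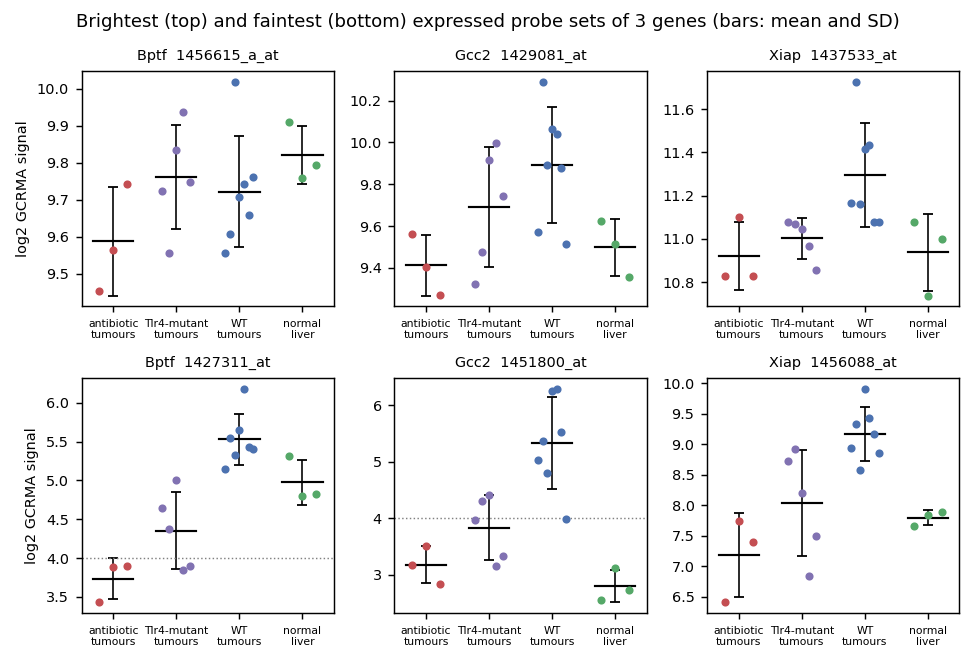
Log2 GCRMA signal (y axis) on each array (points) for the brightest and the faintest expressed probe set of Bptf, Gcc2 and Xiap, by group (x axis: antibiotic, Tlr4-mutant and WT tumours, normal liver), with group means and SD; a dotted line marks log2 4 where signals come near it. The brightest probe set of each gene overlaps between antibiotic and WT tumours, while 1427311_at and 1456088_at do not. On 1451800_at the antibiotic tumours and WT tumour 22 lie under log2 4, where signals have no order.

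Over the 26 expressed probe sets, every difference of antibiotic minus WT tumours was negative, with a median of -1.54 and a range of -3.22 to -0.13 (log2), where the median of all 16663 expressed probe sets was -0.02. All antibiotic tumours lay below all WT tumours on 20 of the 26, as on 3.04% of all expressed probe sets, with signals under log2 4 taken as equal here and in every such count. At a limma adjusted p under 0.05, 0.540% of all expressed probe sets were lower and 0.0120% higher. Members were chosen on this contrast, so nothing is read from these counts. For 6 genes every expressed probe set was without overlap, and the exceptions were 1 of 4 for Washc4, 2 of 3 for Bptf, both of Gcc2 and 1 of 2 for Xiap. Of the 10 brightest probe sets, 1 for each gene, 7 were without overlap. Without WT tumours 17 and 19 all 26 differences stayed negative, with a median of -1.45, and without antibiotic tumour 30 likewise, with a median of -1.40. The 12 dim probe sets gave log2 values of 0.89 to 5.09, with 3 of 216 values above 4, and bear on no comparison.

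**Figure D4:**
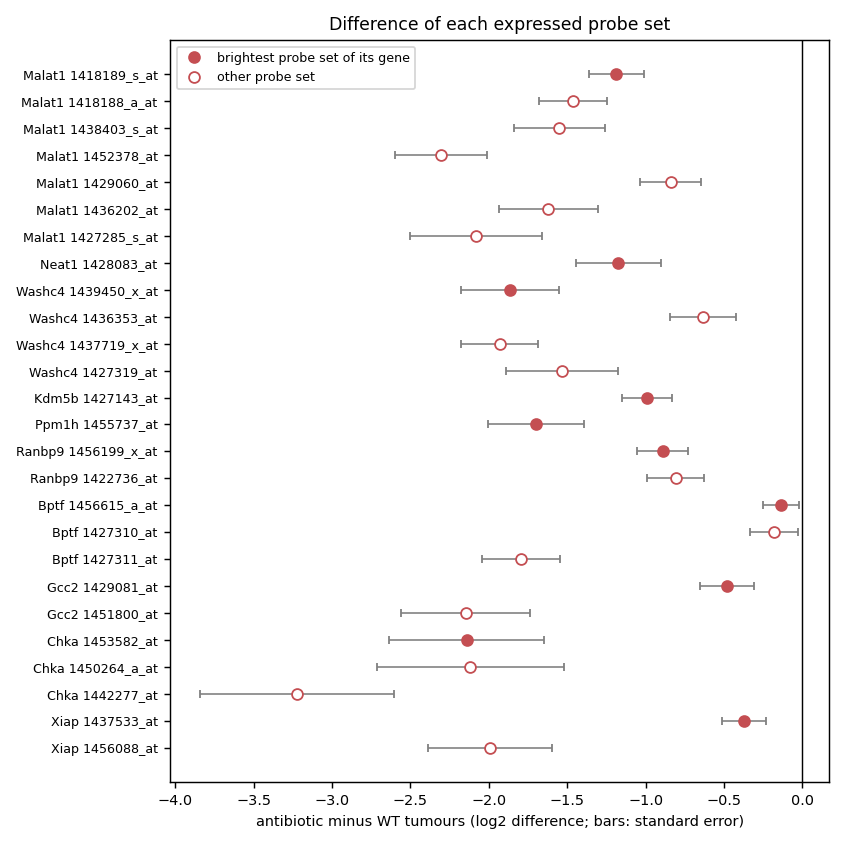
Antibiotic minus WT tumours (x axis: log2 difference, bars show the standard error of the limma fit) for each of the 26 expressed probe sets (y axis); filled points are the brightest probe set of a gene and open points the others. The differences run between -3.22 for Chka 1442277_at and -0.13 for Bptf 1456615_a_at, and the smallest ones belong to bright probe sets of Bptf, Xiap and Gcc2.

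Tlr4-mutant tumours were set against WT tumours to ask how the genes stood when the lipopolysaccharide receptor was mutated. The mutant arrays took no part in the choice of members, but the WT arrays did. Members picked for high WT against antibiotic signals lean towards negative values here too, so the counts and p-values of this comparison are no independent support. Tlr4-mutant minus WT tumours was negative on 24 of 26, with a median of -0.63 and a range of -1.49 to 0.07, against -0.01 over all expressed probe sets. At a limma adjusted p under 0.05, 2 of 26 were lower, against 0.252% of all expressed probe sets, and 24 did not pass. On 5 of 26 all Tlr4-mutant tumours lay below all WT tumours, against 0.990% of all, and nothing is read from the excess of either count.

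The 2 that passed were Bptf 1427311_at and Ranbp9 1456199_x_at. The Bptf probe set read 4.64, 4.38, 5.01, 3.84 and 3.90 in Tlr4-mutant tumours, all below the WT range of 5.14 to 6.18 (-1.17 ± 0.21, limma adjusted p = 0.0196). Its bright probe sets gave 0.04 and 0.07 (limma adjusted p = 0.868 and 0.791). It was -1.05 without Tlr4-mutant tumour 26 and -1.06 without tumour 27, and passed in neither case. Without both the difference on 1427311_at was -0.85 and did not pass (limma adjusted p = 0.273; the range over all alternatives was 0.00681 to 0.273). Ranbp9 1456199_x_at read 8.58, 9.15, 8.91, 8.81 and 8.54 in Tlr4-mutant tumours against 9.23 to 9.81 in WT tumours (-0.65, limma adjusted p = 0.0495), and its p ranged between 0.0297 and 0.390 over the alternatives. This call was lost when any of 15 single arrays was left out, that is, with all but WT tumour 22, Tlr4-mutant tumour 24 and antibiotic tumour 30.

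The brightest Malat1 probe set differed by -0.43 in Tlr4-mutant minus WT tumours (limma adjusted p = 0.166), the largest Malat1 difference was -0.96 on 1452378_at (limma adjusted p = 0.0972), and Neat1 differed by -0.21 (limma adjusted p = 0.663). Chka differed by -0.61 on 1453582_at (limma adjusted p = 0.450), with an SD of 1.25 over the 5 Tlr4-mutant tumours and 0.46 over the 7 WT tumours. Tumours 26 and 27, which had the largest Gapdh 3' minus 5' differences among tumours, were the 2 lowest Tlr4-mutant tumours on 14 of the 26 probe sets, among them Xiap 1456088_at (6.83 and 7.50), Washc4 1439450_x_at and Bptf 1427311_at. They were the 2 highest on 2, Malat1 1436202_at (7.83 and 7.94) and Bptf 1427310_at (8.45 and 8.46). Tumour 26 was the highest on the brightest probe sets of Neat1, Kdm5b, Gcc2 and Bptf. The shares over all expressed probe sets are not given here, so nothing is read from these counts. Without tumours 26 and 27 the median over the 26 probe sets was -0.47, with 24 negative and 0 passing. On beta-actin tumour 26 (2.28) did not exceed WT tumour 19 (2.47), and the part of RNA quality in these values was not tested.

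Tlr4-mutant tumours against normal liver is the comparison whose arrays took no part in the choice. Chka and the brightest Malat1 probe sets were higher in the tumours. At a limma adjusted p under 0.05, 8 of 26 probe sets were higher (7 of 24 without Ppm1h and Gcc2 1451800_at, which were kept through tumour arrays alone), against 12.6% of all expressed probe sets, and none was lower, against 11.7%. All Tlr4-mutant tumours lay above all normal livers on 8 of 26, against 17.0%. The median difference was 0.24 (range -0.84 to 4.45), with 18 of 26 positive, against 0.01 over all expressed probe sets.

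Chka accounted for 3 of the 8, with 21.9-fold higher signal on 1453582_at (4.45 on the log2 scale, limma adjusted p = 3.21e-05), and differences of 4.26 and 4.06 on the others (limma adjusted p = 0.000244 and 0.000486). Malat1 gave 2 of its 7, 0.74 on 1418189_s_at and 0.68 on 1418188_a_at (limma adjusted p = 0.0096 and 0.0393). The other Malat1 probe sets lay between -0.84 and 0.13 and did not pass, so the probe sets of the gene disagree in sign. Ppm1h was at least 1.73-fold higher, a difference that its selection through tumour arrays favours. Washc4 1436353_at differed by 0.83 (limma adjusted p = 0.0147) and Ranbp9 1422736_at by 0.62 (limma adjusted p = 0.0284). Neat1 differed by 0.72 and did not pass (limma adjusted p = 0.0794). The second Malat1 call and the Ranbp9 call were lost when any 1 normal liver was left out, and also without Tlr4-mutant tumour 23, 24 or 25 (Malat1) or 24, 25 or 26 (Ranbp9) (highest adjusted p over the alternatives 0.122 and 0.103), and the Washc4 call without normal liver 2. Without Tlr4-mutant tumours 26 and 27 the median was 0.35 and 9 passed.

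WT tumours minus normal liver, which uses the WT arrays of the choice, had 14 of 26 probe sets higher at a limma adjusted p under 0.05, against 20.9% of all expressed probe sets, and none lower, against 19.0%. The median was 0.91 (range -0.10 to 5.29), against 0.02 over all. On 16 of 26 all WT tumours lay above all normal livers, against 16.8%. The choice of members favours high WT values, so these counts carry no support and the values below are a description. Chka was 33.5-fold higher on 1453582_at, and Ppm1h at least 3.23-fold. Malat1 was higher by 1.18 on 1418189_s_at, but differed by only 0.17 on 1429060_at and by -0.08 on 1427285_s_at. Its other probe sets lay between 0.74 and 1.26. Neat1 was higher by 0.92 with overlap, and its call was lost without normal liver 1 or 3.

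For antibiotic tumours and normal liver, both group levels are given without a test. The antibiotic tumours lay below all normal livers on 9 of the 26 probe sets, above them on the 3 of Chka, and overlapped on 14. Against the Tlr4-mutant tumours they lay below on 7 and overlapped on 19. The 9 included 4 of Malat1, 2 of Washc4, 2 of Bptf and that of Kdm5b. The choice of members favours low antibiotic values against both groups. The shares over all expressed probe sets are not given here, so nothing is read from these counts.

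**Figure D5:**
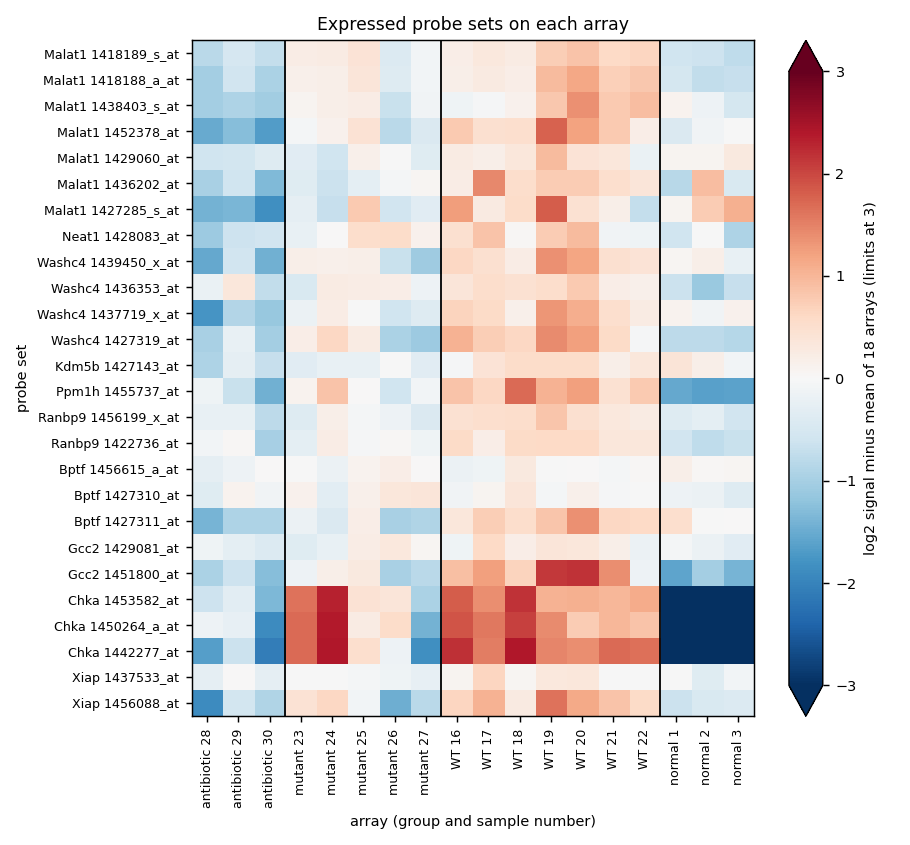
Log2 GCRMA signal minus the mean of the 18 arrays (colour, limits at 3) for the 26 expressed probe sets (rows) on each array (columns: antibiotic, Tlr4-mutant and WT tumours, normal liver). The antibiotic columns are low on nearly all rows, Tlr4-mutant tumours 26 and 27 are lower than 23 to 25 on several, and Chka is low in all normal livers.

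Genes whose tumour-to-tumour pattern was most like that of Malat1 were sought among 9043 other genes by Pearson correlation with 1418189_s_at over the 15 tumours, where the median gene had r -0.04. The first 10 had r of 0.85 to 0.90: Chd4, Zc3h15, Csnk2a1, Ino80d, Pgap2, Pdap1, Acin1, Adap2, Pdcd6ip and Kdm5a. Chd4, a nucleosome remodeller of the NuRD complex, had r 0.90, and 0.70 after group means were removed. Zc3h15, a zinc finger protein, had 0.88 and 0.82, and for 7 of the 10 the second value was above 0.6. Without the 2 tumours whose Malat1 signal lay farthest from the median, the 10 had r of 0.72 to 0.88. The 10 were picked for high r on these same tumours, so both further sets of r follow in part from the choice. The share of all 9043 genes above 0.6 is not given here. All 10 had lower means in antibiotic than in WT tumours, between 1.21 lower for Chd4 and 0.50 lower for Csnk2a1 on the log2 scale, which their likeness to Malat1 entails. Among the members, Washc4 was closest to Malat1, with r 0.93 and 0.76 after removal of group means. The others had 0.81 (Kdm5b) down to 0.20 (Bptf), and after removal of group means none of them exceeded 0.24. The members' values before that removal include the antibiotic difference that chose the members, so these follow in part from the choice.

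The other genes of the members' pathways were taken from 11 lists with 196 genes besides the members, of which 175 were tested, 1 probe set each. In antibiotic minus WT tumours 1 of the 175 was lower (0.571%) and none higher at a limma adjusted p under 0.05, with a median of -0.0033. Over all expressed probe sets 0.540% were lower and 0.0120% higher. These shares also count the fainter probe sets of a gene, which the 175 leave out, so the units are unlike. With shares this low, a list without a call says little. By an unadjusted limma p under 0.05, 2839 of all expressed probe sets would have passed. The 1 was Acin1, an RNA-binding protein of splicing complexes, among the 27 genes of nuclear speckles and SR proteins (median -0.04), and it is also among the 10 genes most like Malat1. It read 4.45, 5.45 and 5.21 in antibiotic tumours and 5.95 to 6.69 in WT tumours (-1.19 ± 0.22, limma adjusted p = 0.0291).

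None of the 24 paraspeckle proteins that work with Neat1 passed (median 0.04). Pspc1, a core paraspeckle protein, differed by -0.68 (limma adjusted p = 0.330) and Rbm14 by 0.51 (limma adjusted p = 0.179). None of 16 other long noncoding RNAs passed (median 0.20). Snhg8 differed by 0.55 and Snhg11 by 1.60 (limma adjusted p = 0.250). The WT mean of Snhg11, 3.33, was under log2 4, so the size of its difference is uncertain. Of the partners of Washc4, 22 genes of the WASH and retromer-linked complexes, none passed (median 0.07), and Washc1, the actin-nucleating subunit, differed by 0.45 (limma adjusted p = 0.207) and Commd5 by -0.48 (limma adjusted p = 0.210).

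The relatives of the chromatin members gave no call either. Among 18 histone demethylases (median -0.15) Kdm5a, of the same subfamily as Kdm5b, differed by -0.89 (limma adjusted p = 0.0600), and Kdm6b by -0.44. Among 12 genes of NURF and ISWI remodelling (median -0.02) Rsf1 differed by -0.92 (limma adjusted p = 0.146) and Baz2a by -0.48 (limma adjusted p = 0.101). In the CTLH ligase of Ranbp9, 10 genes had a median of 0.11, Wdr26 differing by -0.29 and Ypel5 by 0.34. The 14 trans-Golgi golgins and tethers had the lowest median, -0.26, with Golga1 at -1.04 (limma adjusted p = 0.0929) and Trip11 at -0.44.

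For Chka, the 11 other genes of phosphatidylcholine synthesis had a median of 0.38 (range -0.51 to 1.05). Of the 11, 4 were negative and none passed, and the negative sign of Chka itself was fixed by the choice of members. Chpt1, which makes phosphatidylcholine in the last step, differed by 0.92 (limma adjusted p = 0.279), and Pcyt2, of the ethanolamine branch, by 0.49 (limma adjusted p = 0.219). The 9 inhibitor of apoptosis proteins and antagonists around Xiap had a median of -0.06. Birc5, which is also a proliferation gene, was at -2.37 (limma adjusted p = 0.116) and Naip2 at -0.86. The 12 PP2C phosphatases had a median of 0.07, with Ppm1f at -0.82 (limma adjusted p = 0.102) and Ppm1l at 1.26 (limma adjusted p = 0.183). Birc5 averaged 3.88 in antibiotic tumours and Ppm1l 3.92 in WT tumours. Both means were under log2 4, so the sizes of these differences are uncertain. In Tlr4-mutant minus WT tumours 1 of the 175 was higher (0.571%) and none lower. Of all expressed probe sets, fainter ones of a gene included, 0.138% were higher and 0.252% lower. It was Kdm5d, a demethylase on the Y chromosome, which read 7.99 to 8.39 in Tlr4-mutant tumours and 6.88 to 7.40 in WT tumours (1.02, limma adjusted p = 0.00386). Over all 9053 genes at 1 probe set each, the median was 0.02 for antibiotic and 0.03 for Tlr4-mutant minus WT tumours.

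Markers of 8 liver and immune cell types were read beside these values. Of 47 markers 44 are on the array and 29 were expressed, and none passed the test in antibiotic or Tlr4-mutant minus WT tumours. Calls were rare over all expressed probe sets too, with 0.540% lower and 0.0120% higher in the first comparison. In the second they were 0.252% and 0.138%, so the lack of a call among 29 markers says little. Summed levels of cholangiocyte markers were log2 9.60 to 12.92 in antibiotic tumours, 12.00 to 12.89 in Tlr4-mutant tumours, 10.09 to 13.75 in WT tumours and 5.14 to 5.32 in normal liver, with Krt7, Krt19 and Epcam dim. For macrophage markers the ranges were 8.77 to 11.94, 9.75 to 11.96, 9.30 to 12.16 and 9.21 to 10.59 in the same order of groups, with Marco dim. Endothelial sums were 8.72 to 11.15 in antibiotic, 9.82 to 10.29 in Tlr4-mutant and 5.65 to 10.75 in WT tumours, with Pecam1 dim, and stellate cell and fibroblast sums 10.34 to 11.71, 10.64 to 11.38 and 10.97 to 12.57, with Col1a1 and Des dim. Neutrophil sums were 4.34 to 6.81 in antibiotic, 7.03 to 9.20 in Tlr4-mutant and 4.38 to 8.26 in WT tumours, with 2 of 4 markers on the array. B and plasma cell sums were 4.80 to 5.45, 6.53 to 8.61 and 4.02 to 7.51 in the same order. Only 1 of the 4 B and plasma cell markers was expressed, with Cd79a, Ms4a1 and Mzb1 dim. All 5 T and NK cell markers were dim. The ranges of antibiotic and WT tumours, and those of Tlr4-mutant and WT tumours apart from hepatocytes, overlapped for every expressed list. Those of antibiotic and Tlr4-mutant tumours did not overlap for neutrophils, for B and plasma cells and, narrowly, for hepatocytes. The part of cell makeup in the members' values was not tested.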

How the data were processed

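Per the submitters' processing notes the authors summarised the arrays with GCRMA, whose version is not given in the sources used here. The deposited values are used as log2 signals: the scale is not stated, and was taken from their range. RNA was biotin-labelled with a 3' IVT kit per the labels' protocols. Arrays have no read depth, so their number and the signal over background limit the precision. Groups and sample numbers come from the labels. Gene symbols come from the platform annotation, and all 38 matched the RefSeq symbol of their Entrez identifier.

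Probe sets above log2 4 on at least 3 arrays were kept (16663), and 64 control probe sets were left out. limma 3.58.1 (R 4.3.3) estimated 4 group means from the 18 arrays together, with Benjamini-Hochberg adjustment over all kept probe sets, and an adjusted p under 0.05 counted as passing. Groups did not overlap where every array of one lay beyond every array of the other, with signals under log2 4 set to log2 4 first, since they have no order. A fold against a group with all arrays under log2 4 was computed against log2 4 and is a lower bound. Within-group correlations over the kept probe sets were 0.93 to 0.99, and 0 arrays had identical values. The 3' to 5' signal differences of the controls were tested by exact permutation (scipy 1.17.1), and figures were drawn with matplotlib 3.10.9. The fit was tested on simulated data.

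Named genes were all members, the 10 genes most correlated with the brightest Malat1 probe set over the tumours, and of each list the 2 non-member genes of smallest limma p in antibiotic minus WT tumours. The probe set of highest mean stood for a gene outside the members. Members and lists were chosen with earlier results of these data known. Alternatives were other filters, scalings, variance models, array weights, subsets of arrays and a stricter threshold.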

Additional observations from a re-analysis of the deposited data

How the results depend on the processing

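No paired analysis was possible because the groups share no sample numbers. In antibiotic minus WT tumours none of 735 single-probe-set values under the alternatives changed sign, and 728 moved by less than the spread between replicates. The other 7, of Ranbp9, Chka and Washc4, moved by more than that when antibiotic tumour 29 or 30 was left out. Members were chosen on this contrast, so the stable sign is no support. In Tlr4-mutant minus WT tumours 30 of 735 lost and 2 gained the call, against normal liver 18 lost and 11 gained it for Tlr4-mutant tumours, and 7 and 28 for WT tumours. The cause of these changes was not tested. Over all probe sets, antibiotic minus WT tumours gave 92 calls, against 46 with no filter, 1 with the 2 groups fitted alone, 23 with array weights, 8 with 1 probe set for each gene and 9 at an adjusted p under 0.01. Leaving out 1 array gave 14 (without antibiotic tumour 30) to 271 (without WT tumour 22), and leaving out Tlr4-mutant tumours 26 and 27, an alternative chosen after seeing the data, 152. Tlr4-mutant minus WT tumours gave 65 calls, against 41 with the filter at log2 6, 121 with array weights, 24 with 1 probe set for each gene, 21 at 0.01, 38 without WT tumours 17 and 19, and 23 without Tlr4-mutant tumours 26 and 27. Leaving out 1 array gave 26 (without Tlr4-mutant tumour 26) to 120 (without WT tumour 22). Of the members, 2 passed there, against 1 with no filter, with the filter at log2 6, with centred arrays, with quantile normalization or with array weights, and 0 with the 2 groups fitted alone, with 1 probe set for each gene, at 0.01, or without either pair of arrays. Leaving out 1 array gave 0 (without Tlr4-mutant tumour 26) to 3 (without WT tumour 22). Tlr4-mutant tumours against normal liver gave 4051 calls, against 8225 with array weights, 2015 with 1 probe set for each gene and 1772 at 0.01. Leaving out 1 array gave 2254 (without normal liver 1) to 4337. Members numbered 8, all higher, and 13 with array weights, 12 higher and 1 lower. The lower one was Kdm5b 1427143_at (-0.35, limma adjusted p = 0.0333). Members numbered 3 with 1 probe set for each gene, 5 at 0.01 and 5 (without normal liver 2) to 9 without 1 array. Without Tlr4-mutant tumour 25, Bptf 1427311_at was called lower (-0.79, limma adjusted p = 0.0368). WT tumours against normal liver gave 6652 calls, against 3533 with 1 probe set for each gene, 3777 at 0.01 and 4575 to 6932 without 1 array; members numbered 14, against 5 with 1 probe set for each gene and 11 to 17 without 1 array. Fewer probe sets are tested with 1 for each gene. Of the 10 genes most like Malat1, 4 were among the first 10 by deviations from group means and 2 over all 18 arrays. The Gapdh 3' minus 5' difference without 1 array ran between -0.08 and 0.05 for antibiotic minus WT tumours and between 0.15 and 0.31 for Tlr4-mutant minus WT tumours; for beta-actin the ranges were -0.18 to -0.02 and -0.03 to 0.18. Signals under log2 4 are bounds and carry no order.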

Other observations

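Of the 90 probe sets lower in antibiotic than in WT tumours at a limma adjusted p under 0.05, 81 list 1 gene symbol and stand for 72 genes, members among them, whose own differences the choice fixed. Of the 90, 77 belong to genes with several expressed probe sets, and 66 of these (85.7%) are not the brightest of their gene, whereas 61.1% of all 9222 expressed probe sets of such genes are not the brightest. Outside the members this holds for 56 lower probe sets of 55 genes. Their median difference was -1.19 (log2), and the brightest probe sets of the same genes had a median of -0.20, with 49 of 55 negative. The 56 were picked for their low values, so a smaller difference on the other probe set follows in part from the choice, and the excess was not tested.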
